A study of Homo sapiens with 24 samples.

Results

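Regions of H3K4me3, a histone mark of active promoters, lay inside many zinc finger genes, outside the promoters of protein-coding genes, in EndoC-βH3 cells. The regions described here are those on autosomes other than chromosome 19 that overlapped the body of a protein-coding gene with a symbol of the form ZNF and a number, and that lay outside the 2 kb on either side of every protein-coding transcription start site. Some of them (70) lay within 2 kb of the start of an annotated gene of another kind. They number 900 of the 97545 regions in the deposited H3K4me3 table. They fell in 165 of the 250 such genes of GENCODE release 44. A further 424 regions overlapped these genes but lay within a promoter window. The genes were divided by genomic neighbourhood. A gene with another such gene within 200 kb on its chromosome was termed clustered (116 genes, 456 regions), and the remaining genes were termed isolated (134 genes, 444 regions).

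H3K4me3 was profiled by MINT-ChIP, a ChIP-seq method in which MNase-digested chromatin is tagged with a barcode per sample and then combined for the antibody step, from 500000 cells per sample. EndoC-βH3 is a human beta cell line immortalized with SV40 large T antigen and hTERT, which carries a Cre recombinase that 4-hydroxytamoxifen activates to excise the transgenes. The 4 non-senescent samples were untreated control cells that still carried the transgenes and the inducible Cre, and the 4 senescent samples had received 4-hydroxytamoxifen for 3 weeks, at 1 mM per the labels (the study's methods give a micromolar dose). All samples are labelled as wild-type genotype and come from 1 cell line. The value used here for each region is the authors' mean of the normalized counts over the compared samples, so non-senescent and senescent cells stand in it together. The columns used hold no value per sample, no difference between the states is given, the depth and the spread between samples are unknown, and every comparison below is a description without a test. Regions and genes are not replicates. The 95% Wilson intervals given for shares cover the counting of regions or genes only.

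The cells carried H3K4me3 at the promoters of beta cell genes. A region was present at 13 of 14 beta cell genes, with a median of 259 mean normalized counts. The values included PAX6 at 665 and PDX1 at 260, both transcription factors of the pancreatic lineage. The insulin gene INS had 24.7, the hormone gene IAPP had 6.94, the lowest of the list, and MAFA had no region. Genes of other pancreatic cells had a region at 6 of 8 promoters, with at most 24.1 at KRT19, a duct marker. Genes of other lineages had one at 3 of 7, with at most 17.6 at PECAM1, an endothelial marker, and none at PTPRC, CD3E, ALB and CDH5.

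Zinc finger genes of this kind encode DNA-binding proteins built of repeated C2H2 fingers, each held around a zinc ion by a pair of cysteines and a pair of histidines. In the large vertebrate family many of these proteins join the fingers to a KRAB domain, which recruits the corepressor TRIM28 and the H3K9 methyltransferase SETDB1. The fingers are usually encoded as one uninterrupted tandem array in the last exon, and the genes have multiplied by local duplication. The 3′ exons of such genes are themselves known sites of H3K9me3, laid down with ZNF274 and ATRX, so H3K4me3 is not the mark for which these exons are known. Among 22 genes of this heterochromatin pathway, all had an H3K4me3 region at the promoter, with values from 16.0 at UHRF1 to 255 at CBX5. TRIM28 stood at 37.8, SETDB1 at 84.9, ATRX at 44.2 and ZNF274 at 71.8.

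The single strongest region of clustered genes and that of isolated genes differed in sequence. The windows below are 300 bases from within 3 regions, written 5′ to 3′ on the strand of the gene, with the motif GAGAAACC in capitals. They were not placed alike, since the ZNF608 window is at the centre of its region and the ZNF721 window is off centre. This motif spells part of the conserved linker between neighbouring fingers. The first is from the region of highest signal among clustered genes, which also held the most linker motifs of that class, the second from the region of highest signal among isolated genes, and the third from a region of an isolated gene that held 4 linker motifs. In hg38 the windows are chr4:443472-443771 on the minus strand, chr5:124651111-124651410 on the minus strand and chr9:101408245-101408544 on the plus strand.

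ZNF721, clustered, coding exon: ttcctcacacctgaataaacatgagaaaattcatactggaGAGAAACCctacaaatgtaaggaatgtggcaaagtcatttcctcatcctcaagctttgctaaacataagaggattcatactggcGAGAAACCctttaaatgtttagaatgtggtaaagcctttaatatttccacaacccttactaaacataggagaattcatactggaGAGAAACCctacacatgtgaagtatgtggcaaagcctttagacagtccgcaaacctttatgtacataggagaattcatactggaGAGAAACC

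ZNF608, isolated, intron: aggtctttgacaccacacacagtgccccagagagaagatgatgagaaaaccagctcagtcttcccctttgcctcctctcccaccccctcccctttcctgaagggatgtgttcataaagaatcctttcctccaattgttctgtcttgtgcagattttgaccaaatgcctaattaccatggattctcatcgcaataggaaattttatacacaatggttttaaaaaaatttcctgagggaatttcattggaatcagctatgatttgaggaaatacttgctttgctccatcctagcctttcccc

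ZNF189, isolated, coding exon: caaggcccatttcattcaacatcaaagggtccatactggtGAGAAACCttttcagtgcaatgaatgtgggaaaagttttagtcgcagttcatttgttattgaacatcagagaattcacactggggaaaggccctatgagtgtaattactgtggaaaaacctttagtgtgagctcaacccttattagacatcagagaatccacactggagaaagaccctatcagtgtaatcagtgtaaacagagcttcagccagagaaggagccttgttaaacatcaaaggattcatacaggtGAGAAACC

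The ZNF721 window was coding throughout, held 4 linker motifs and 3 complete finger units, and had a GC content of 38.3%. The ZNF608 window was intronic, held no linker motif and no finger unit, and had a GC content of 43.0%. The whole ZNF608 region also held no linker motif and no finger unit. The ZNF189 window was coding throughout, with 2 linker motifs and 3 finger units.

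The regions were dense in zinc finger genes, and denser in clustered than in isolated ones. Outside promoter windows there were 18.4 regions per 100 kb of gene body in clustered genes and 5.23 in isolated genes. By the same rule there were 22.5 in the zinc finger genes of chromosome 19 (1338 regions) and 3.33 in all other protein-coding genes of the same autosomes (34266 regions). Gene length differed between the classes, since the body outside promoter windows had a median of 16.5 kb in clustered and 24.4 kb in isolated genes. In genes with 5 to 20 kb of body outside promoter windows the densities were 18.7 for clustered, 8.50 for isolated, 30.2 for chromosome 19 and 2.89 for other genes. From 20 to 60 kb they were 18.9, 9.51, 25.2 and 3.04 in the same order. Above 60 kb they were 15.7, 4.11, 13.0 and 3.42, the first from 6 genes only. Isolated genes above 60 kb thus stood close to other genes of that length, while clustered genes were denser than isolated ones in each length band.

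At least 1 region was present in 83 of 116 clustered genes (71.6%, interval 62.8 to 79.0%) and in 82 of 134 isolated genes (61.2%, interval 52.7 to 69.0%), and these intervals overlap. On chromosome 19 the share was 86.6% (213 of 246 genes, interval 81.8 to 90.3%). These shares pool genes of all lengths, and the share varied with length. With 5 to 20 kb of body outside promoter windows it was 66.7% in clustered, 45.2% in isolated and 23.7% in other protein-coding genes. From 20 to 60 kb the shares were 92.9%, 75% and 54.1% in the same order. Above 60 kb they were 83.3% (6 clustered genes), 89.2% and 89.6%. Isolated genes above 60 kb thus held a region about as often as other genes of that length. The number of regions per gene was uneven. Among all 250 genes, 85 had no region, 39 had 1 region, and the 26 genes with 10 or more held 392 of the regions, counting a region once for each gene it overlapped.

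**Figure D1:**
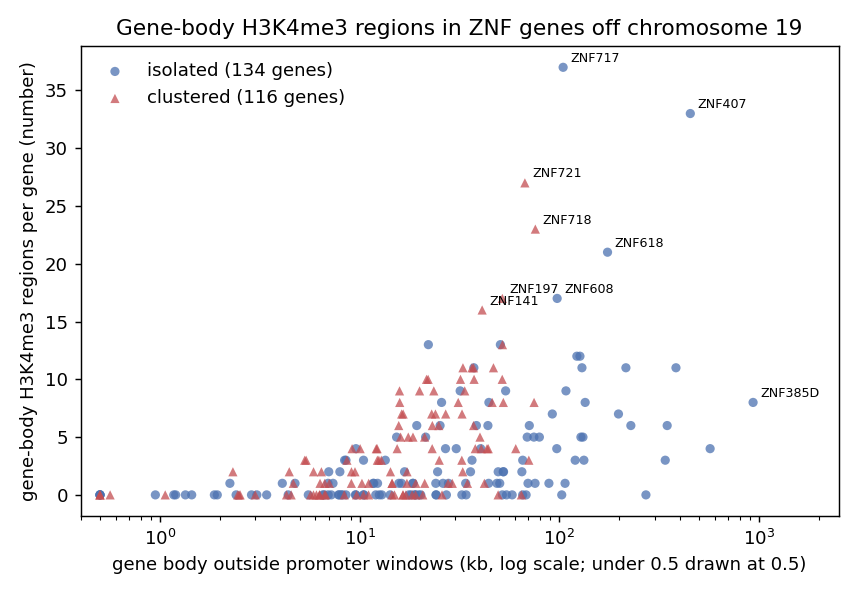
Number of gene-body H3K4me3 regions in each of the 250 genes (vertical axis) against the length of gene body outside promoter windows in kb (horizontal log axis), with a point per gene (7 genes with less than 0.5 kb are drawn at 0.5 kb), triangles for clustered and circles for isolated genes. ZNF717 and ZNF407 had the most regions (37 and 33), ZNF721 led the clustered genes with 27, and ZNF385D, the longest gene at 933.5 kb outside windows, had 8.

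By length of sequence covered, the finger array stood apart from the remainder of the gene. A finger array was defined as a run of at least 3 finger units within coding sequence. In clustered genes 44.5% of finger array bases lay inside an H3K4me3 region, against 29.3% of other coding exon bases, 19.8% of exon bases without coding sequence and 15.6% of intron bases. In isolated genes the values were 22.6%, 7.37%, 8.34% and 4.71%. On chromosome 19 they were 38.8%, 35.0%, 23.5% and 16.7%. In other protein-coding genes coverage did not rise in coding sequence, with 2.50% of coding exon bases, 2.51% of noncoding exon bases and 2.89% of intron bases. Introns of clustered genes were therefore also covered several times more than introns of other genes, so the high coverage of these genes was not confined to their arrays.

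Isolated genes were of mixed kinds. The 103 isolated genes with at least 3 finger units had 6.53% of the body outside windows covered, and their introns 6.01%. The isolated genes with fewer units had 3.02% and 3.04%, near the values of other protein-coding genes. The median number of finger units found per gene was 10 in clustered and 7 in isolated genes, not counting units split by an intron.

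**Figure D2:**
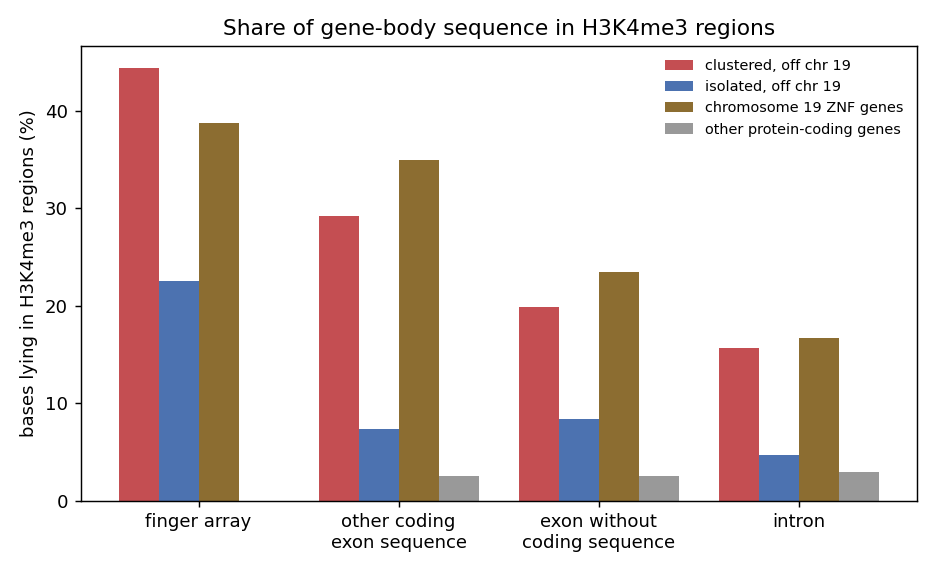
Percentage of bases lying in H3K4me3 regions (bars, from 0) for 4 kinds of gene-body sequence outside promoter windows, in clustered and isolated zinc finger genes off chromosome 19, chromosome 19 zinc finger genes and other protein-coding genes, for which no array was measured. Finger arrays had the highest coverage in each zinc finger group, with 44.5% in clustered, 22.6% in isolated and 38.8% in chromosome 19 genes.

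Most regions were nevertheless intronic. Introns made up 1948 of the 2478 kb of clustered gene body outside promoter windows and 7867 of 8491 kb in isolated genes. In clustered genes 92 regions overlapped a coding exon of the gene (20.2%), 78 an exon without coding sequence (17.1%) and 286 an intron only (62.7%). In isolated genes the counts were 54 (12.2%), 45 (10.1%) and 345 (77.7%). Along the gene, from the 5′ end at 0% to the 3′ end at 100%, array regions had a median position of 80.1% in clustered and 66.4% in isolated genes. Other regions were centred near the middle, at 53.7% and 45.6%.

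The typical region was weak. The median over the 900 regions was 3.49 mean normalized counts (quartiles 2.20 and 7.42, range 0.562 to 100.6). It was 3.48 in clustered and 3.50 in isolated genes, 3.37 on chromosome 19 and 3.54 in other gene bodies, so the groups of genes differed in how many regions they held and hardly in the signal of the typical region. The stronger regions differed more. In the same order, 15.6%, 18.7%, 10.5% and 19.2% of regions had at least 10 mean normalized counts. At least 30 were reached by 3.29%, 5.41%, 0.673% and 3.50%. Regions at promoters of protein-coding genes had a median of 19.4, but they were wider, with a median of 1433 bp. Per kb of region the medians were 12.5 at promoters and 5.32 over the 900 regions. The 900 regions had a median width of 633 bp, and 373 of them (41.4%) were exactly 500 bp wide. Their GC content was low, with medians of 39.5% in clustered and 39.2% in isolated genes, against 39.7% in other gene bodies and 50.0% at promoters.

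Regions on finger arrays were stronger, and wider. The 67 regions that overlapped at least 3 finger units (44 in clustered and 23 in isolated genes) had a median of 10.8 mean normalized counts, and the 833 other regions a median of 3.33. The array medians were 11.6 in clustered and 8.78 in isolated genes. Array regions had a median width of 1534 bp against 623 bp. Per kb of region the medians were 7.31 and 5.20. Among regions of at least 2000 bp, the 23 on arrays had a median of 22.4 and the 62 others 26.7, but this order differed between the classes. In clustered genes the 18 wide array regions had a median of 24.5 and the 27 other wide regions 18.9 (8.17 and 7.03 per kb). In isolated genes the 5 wide array regions had a median of 21.1 and the 35 others 42.5 (8.11 and 11.9 per kb). Of the array regions, 8 (11.9%) were exactly 500 bp wide, against 43.8% of the others. Array and other regions of equal width below 2000 bp were not compared, so the part of width in the smaller regions was not tested. Array regions held 25.9% of the summed mean normalized counts of clustered genes and 7.43% of those of isolated genes.

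**Figure D3:**
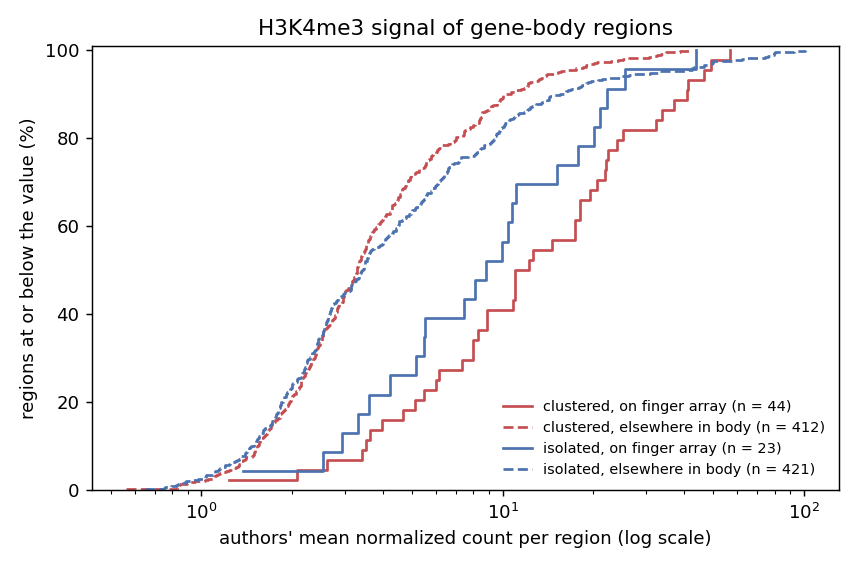
Cumulative percentage of regions (vertical axis) at or below each mean normalized count (horizontal log axis), for regions on finger arrays (solid lines, 44 clustered and 23 isolated) and elsewhere in the body (dashed lines, 412 and 421). The solid lines lie to the right, with medians of 11.6 and 8.78, and the dashed lines nearly coincide up to their medians of 3.29 and 3.42.

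The strongest regions lay at different places in the classes. Of the 20 strongest regions in clustered genes, 10 were on a finger array and 5 were intronic, and they came from 17 genes. Of the 20 strongest in isolated genes, 1 was on an array and 16 were intronic, and they came from 10 genes. Within 2 kb of the start of a gene that is not protein-coding lay 4 of the 20 in clustered genes and 1 of the 20 in isolated genes. The shares near such starts over all regions were 6.80% in clustered and 8.78% in isolated genes. At 30 mean normalized counts or more there were 15 regions in clustered genes, 8 of them on arrays, and 24 in isolated genes, 1 of them on an array.

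Among clustered genes the strongest was the array region of ZNF721 at 57.0 (chr4:441651-446344), a region 4693 bp wide that contained 23 finger units and 19 linker motifs. ZNF721 had 27 regions in all, the most among clustered genes, and the next strongest, an intronic region, had 30.7. Its promoter stood at 93.0. The array region of ZNF354C had 49.2 (chr5:179078308-179084379) beside a promoter value of 56.9. It lay within 2 kb of the start of a gene that is not protein-coding. The array region of ZNF268, a KRAB protein gene, had 46.6 and covered all 25 of its units, while the highest of its other regions had 6.90. ZNF141 followed at 41.4 on its array of 10 units. A single region of 41.1 covered the array of ZNF140 and the overlapping 3′ end of ZNF891, which runs on the opposite strand, so its signal cannot be assigned to either gene. The array region of ZNF605 had 37.2, slightly above its promoter at 36.4.

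Other strong regions of clustered genes were off the array. ZNF595 had 41.5 over a coding exon that holds no finger unit, and 33.8 on its array. ZNF37A had 34.9 in an intron and 25.2 on its array. The only region of ZNF48, at 38.8, spanned the 3′ end of the gene, held no finger unit and had a GC content of 55.3%. Of the genes with most regions, ZNF718 had 23 with a maximum of 25.1 in an intron. ZNF197, which encodes a KRAB protein, had 17 with a maximum of 26.2 in an intron and 21.9 on the array. ZNF782 had 13 with a maximum of 16.1.

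Among isolated genes the strongest regions were broad and mostly intronic, and most lay in long genes. ZNF608 had 100.6 near its 3′ end, in a region 4944 bp wide that overlapped a coding exon (chr5:124648788-124653732), and further regions of 80.0, 74.1 and 43.2. The region of 74.1 lay within 2 kb of the start of a gene that is not protein-coding. The promoter of ZNF608 stood at 526, and the sequence of the gene held 1 finger unit. ZNF407, a gene of 468 kb, had 33 regions. Its strongest, at 92.9, was an intronic region 7142 bp wide (chr18:74744131-74751273), and 2 others had 50.0 and 49.9. A further one of 43.8 was the only array region of an isolated gene above 30. ZNF831 had 79.6 in an intron, above its promoter at 58.1, and the median over its 11 regions was 2.55. ZNF618, whose protein acts with UHRF2 at 5-hydroxymethylcytosine, had 77.6 against 71.1 at the promoter. ZNF516, a transcription factor of brown fat genes, had 75.9 in an intron. ZNF462, mutated in a developmental syndrome, had 63.7 in an intron, and 32 finger units were found in its coding exons. ZNF697 had 62.4 against 50.0 at the promoter.

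The list closed with ZNF395, whose product responds to hypoxia, at 49.5, and with the related ZNF385D at 48.5 and ZNF385B at 46.5. ZNF385D and ZNF385B each encode 1 unit of the pattern searched and had promoter values of 18.0 and 36.8, below their strongest gene-body regions. A different profile was that of ZNF717, which had the most regions of all (37) and none above 18.1. In this gene 8 regions consisted of sequence that occurs more than once in the genome. ZNF483 had 13 regions with at most 15.9.

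**Figure D4:**
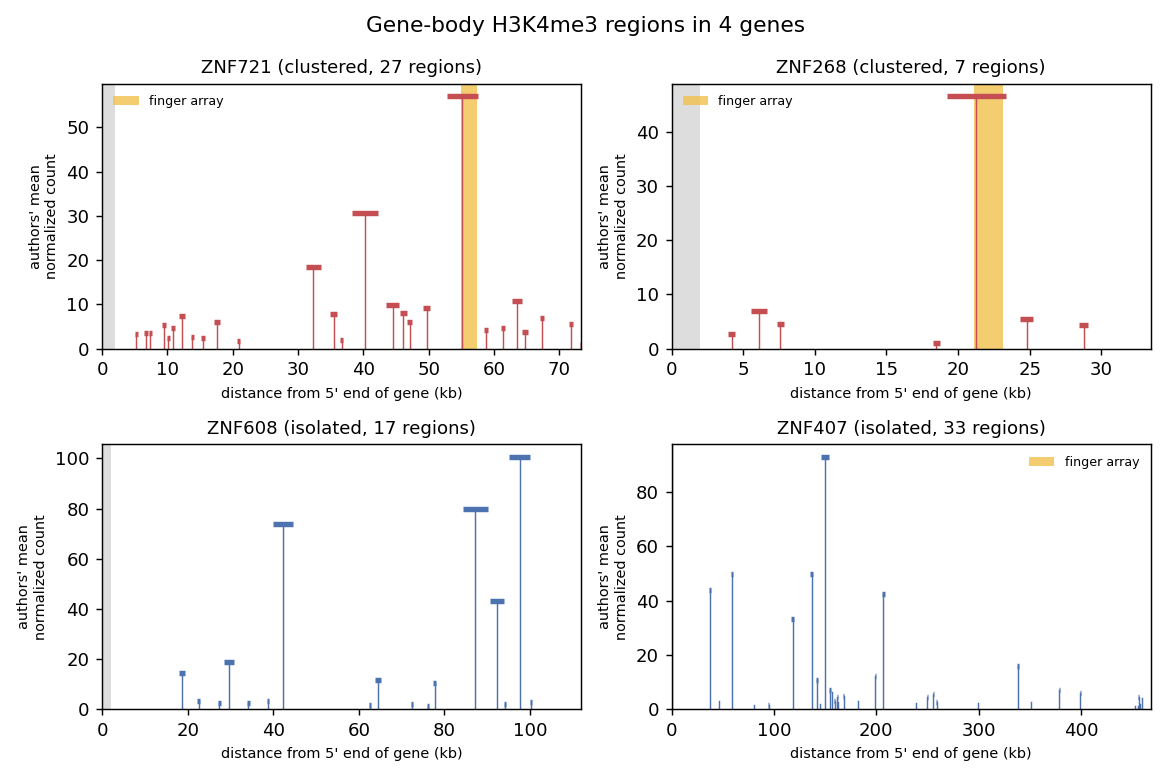
Gene-body regions of ZNF721, ZNF268, ZNF608 and ZNF407 by distance from the 5′ end of the gene in kb (horizontal axis) and mean normalized count (vertical axis), with bar length showing region width, yellow the finger arrays and grey the first 2 kb. The strongest regions of ZNF721 (57.0) and ZNF268 (46.6) covered the array, ZNF608 had no array, and the strongest of ZNF407 (92.9) lay at 149.8 kb, beyond the short arrays between 33.7 and 37.7 kb.

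Not every array carried a region. Genes with at least 3 finger units outside promoter windows were counted here, whether or not the units formed a run. A region lay on at least 3 units in 43 of 101 clustered genes (42.6%, interval 33.4 to 52.3%) and 22 of 75 isolated genes (29.3%, interval 20.2 to 40.4%). On chromosome 19 this held for 113 of 205 genes (55.1%, interval 48.3 to 61.8%). Some of the isolated genes, such as ZNF143 and ZNF341, had no array as defined above and count as genes without such a region. Where a gene had an array region and at least 1 other, the array region was the strongest in 24 of 40 clustered and 10 of 17 isolated genes.

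The linker motif followed the arrays. It was found on either strand in 62 of the 67 array regions (92.5%) and in 35 of the 833 others (4.20%). Array regions were defined by finger units, which this linker joins, so their high share largely follows from the definition. Off the arrays the motif was in 4.85% of regions in clustered and 3.56% in isolated genes. Among all regions the motif was present in 13.6% of those in clustered genes (interval 10.8 to 17.0%) and in 7.88% of those in isolated genes (interval 5.72 to 10.8%). The shares were 14.6% on chromosome 19, 4.02% in other gene bodies and 9.96% at promoters. Per 10 kb of region, which takes width into account, there were 4.50 motifs in clustered genes, 1.49 in isolated genes, 0.491 in other gene bodies and 0.605 at promoters. A match is a property of the sequence and says nothing of a bound factor.

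Clusters differed widely among themselves. The genes formed 29 local clusters, of which 4 had no region. Together, the 4 clusters with the most regions held 230 of the 456 (50.4%). Among the clusters with the most genes, the cluster from ZNF605 to ZNF268 at the end of chromosome 12 had 53 regions in 7 genes, 30.4 per 100 kb, a median of 5.51 and a maximum of 46.6. Its arrays carried a region in 6 of 7 genes, with a median of 30.6. This cluster includes ZNF10, source of the KRAB domain widely used in synthetic repressors, with an intronic region of 31.7. The chromosome 3 cluster that starts at ZNF445, a regulator of imprinted loci, had 42 regions in 7 genes, 32.7 per 100 kb and a region on 6 of 7 arrays, at a lower median over arrays of 8.12. The ZNF205 cluster on chromosome 16, also of 7 genes, had 15 regions, 33.7 per 100 kb, and a region on 4 of 6 arrays.

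The other large clusters were different. The ZNF722 cluster on chromosome 7, with 10 genes, had 56 regions of low signal (median 2.33, maximum 18.1) and a region on 2 of 9 arrays. The ZNF786 cluster on the same chromosome had 3 regions over 191 kb of body in 8 genes, 1.57 per 100 kb, and no region on its 8 arrays. The ZNF48 cluster on chromosome 16 also had 3 regions, in 9 genes, and none on 5 arrays. The ZNF595 cluster at the end of chromosome 4, with 5 genes, had the most regions (79, of which 8 were of multicopy sequence). Without it the density in clustered genes was 16.9 regions per 100 kb.

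**Figure D5:**
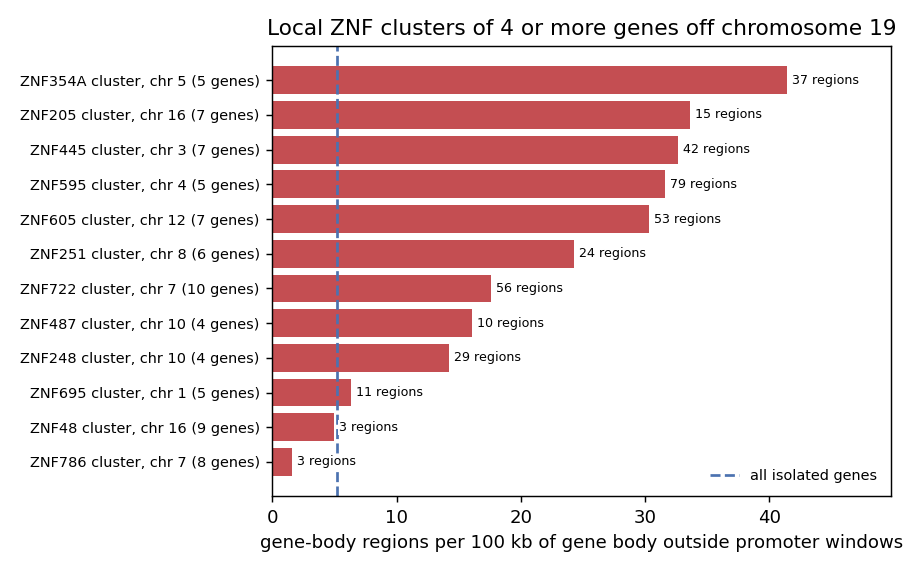
Gene-body regions per 100 kb of gene body outside promoter windows (bars, from 0) in each local cluster of 4 or more genes, named by the first gene, with the number of regions beside the bar and the density of all isolated genes (5.23) as a dashed line. The clusters range from 1.57 (ZNF786 cluster) to 41.5 (ZNF354A cluster), and the ZNF786 and ZNF48 clusters lie below the line.

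In most of these genes the promoter region was stronger than any single region in the body. A promoter region was present at 108 clustered genes, with a median of 56.8, and at 121 isolated genes, with a median of 60.5. Without scaling for region width, the strongest gene-body region had a median of 18.0% of the promoter value in clustered genes and 16.1% in isolated genes. It exceeded the promoter in 13 of the 155 genes with both, 4 clustered and 9 isolated. The sum over all body regions of a gene exceeded the promoter in 30 of the 155, 14 clustered and 16 isolated. The other 10 genes with a body region had no promoter region.

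At the limits of the rule, the members nearest to a start site window lay 2001 bp from a start site in ZNF239 (2.30 mean normalized counts) and 2035 bp in ZNF786 (2.16). The regions just excluded lay at 1966 bp in ZNF267 (3.13) and at 1963 bp in ZNF385B (5.82). The widest gap within a cluster was 190.8 kb between ZNF593 and ZNF683, which had no gene-body region. The narrowest gap left outside was 202.2 kb, between ZNF513, without a region, and ZNF512, with 4.01.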

How the data were processed

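H3K4me3 MINT-ChIP was described for 4 non-senescent and 4 senescent EndoC-βH3 samples, and the 16 H3K27me3 and H3K9me3 samples were not analysed here. Per the labels and the study's methods, the authors mapped the reads with Bowtie2 (hg38), worked on them with SAMtools, found peaks with HOMER and ran DESeq2 between the states. How peaks were merged and reads counted is not given in the sources used here. The deposited signal of a region is the authors' mean normalized count over the samples, with no value per sample, so depth and precision are unknown. A further 5 deposited columns hold the authors' own comparison (fold change, its standard error, a Wald statistic and p-values) and were not used.

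Regions were read as half-open intervals and overlapped by at least 1 base with GENCODE release 44 gene bodies. Finger units were sought as cysteine, 2 or 4 residues, cysteine, 12 residues, histidine, 3 to 5 residues, histidine. The genomic sequence of each gene was translated in every frame of its strand, and units lying within a coding exon were kept. The annotated reading frame was not checked, and units split by an intron were not found. Units up to 200 bases apart formed an array. GAGAAACC was searched on both strands without overlap between motifs. A region was multicopy when the median genome count of up to 60 sampled stretches of 31 bases was above 1. Named genes were, per class, the 10 with the strongest region, the 5 with the most regions, and the 5 clusters with the most genes, of which 3 tied at 7 genes for the last 2 places. The third of these (ZNF205), ZNF10 and the ZNF595 and ZNF354A clusters were added after their values were seen. The third sequence shown was to come from the isolated region with the most linker motifs off chromosome 8, where ZNF189 and ZNF717 tied at 4 and ZNF189 had the higher signal. ZNF596 on chromosome 8 held 5 and was left out of that choice. Members, lists and rules were chosen with earlier results of these data known. Scripts were tested on simulated data. Python 3.11.15, numpy 2.4.6, pandas 2.3.3, scipy 1.17.1, numba 0.67.0 and matplotlib 3.10.9 were used. The design planned no test, and 13 alternatives were tried.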

Additional observations from a re-analysis of the deposited data

How the results depend on the processing

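Over 15 results and 13 alternatives, 128 of 159 values stayed close to the reported ones and 31 moved. Of the 129 medians and shares, 104 stayed within the 95% interval of the reported value, and of the 30 counts and densities, 24 stayed within 1.5 times. The values that moved include the medians per kb, which are in another unit than the reported counts. They also include medians over regions of at least 5 mean normalized counts, which rise by construction. No paired analysis was possible because the columns used hold no value per sample, and no replicate could be left out for the same reason. The alternatives on density, array signal and regions of at least 2000 bp were chosen after seeing the data. The share of regions in clustered genes became 56.4% at a gap of 500 kb and 54.1% when the wider zinc finger family counted as neighbours.

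With only regions of at least 5 mean normalized counts, 324 regions remained, 46.9% of them in clustered genes. The share on coding exons was then 36.2% in clustered and 20.9% in isolated genes, the share with the linker motif 28.3% and 16.3%, and the density 6.13 and 2.03 per 100 kb. The medians were 9.73 over all, 9.59 in clustered genes, 9.88 in isolated genes and 9.42 off the arrays. Without regions of exactly 500 bp, 527 regions remained. The share on coding exons was 26.1% in clustered genes, the share with the linker motif 20.5% in clustered and 11.4% in isolated genes, and the density 10.7 and 3.10 per 100 kb. The medians were 6.14 over all, 5.86 in clustered genes, 6.50 in isolated genes and 5.80 off the arrays.

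Per kb of region the medians were 5.32 over all, 5.31 in clustered genes, 5.33 in isolated genes, 7.31 on arrays and 5.20 off them. Among regions of at least 2000 bp the order of array and other regions turned, with 22.4 and 26.7. It held within clustered genes (24.5 and 18.9) and turned within isolated genes (21.1 and 42.5), and the cause was not tested. Clustered genes had a higher density, a higher share on coding exons and a higher share with the linker motif than isolated genes under all 10 alternatives run for these 3 results. The low mean counts of most regions limit what single weak regions can show.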

Other observations

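Multicopy sequence made up 35 of the 900 regions (3.89%, interval 2.81 to 5.36%), against 2.35% in other gene bodies, and none of the 67 array regions. The 70 regions (7.78%) within 2 kb of the start site of an annotated gene that is not protein-coding included 2 of multicopy sequence. In other gene bodies 5.31% of regions lay near such a start site. CpG-island-like composition was rare, in 3 regions (0.333%), against 0.986% in other gene bodies and 25.9% of promoter regions. Chromosome 3 held the most regions (112, 12.4%), of which 47 were in clustered genes, and chromosome 14 held 1.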
